A study of Mus musculus with 8 samples.

Results

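Kinesins are motor proteins that use ATP to act on microtubules. Some build and pull apart the mitotic spindle or complete cytokinesis, while others carry vesicles, organelles and protein complexes along microtubules between divisions, often through light chains or adaptor proteins. Most transport kinesins are made at all stages of the cell cycle, whereas many mitotic kinesins are produced mainly in G2 and M phase and fall when cells leave the cycle. The kinesin genes were taken as every row of the count table whose symbol is Kif followed by digits and at most 1 letter, or Kifc followed by 1 digit. This gave 41 genes of the 55471 in the table. They were divided by their known roles into 13 mitotic kinesins, 15 transport kinesins and 13 other kinesins, the last with roles in cilia, signalling or microtubule dynamics. The near-identical gene Kifc5b falls outside the symbol rule and is given beside Kifc1. The kinesin gene Cenpe also falls outside it and is counted in a list of mitotic partners.

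RNA was sequenced from SV-LECs, a mouse lymphatic endothelial line from mesenteric adventitial tissue, immortalized with SV40 and grown in medium with serum. The comparison was between 4 libraries of untreated cells and 4 libraries of cells given 10 ng/ml TGFβ1 for 72 h. The study describes the 4 samples of a group as technical replicates of this single line, so p-values measure only the spread between these samples. Total counts were between 18952504 and 26386941 per library, and levels are given as CPM, the counts of a gene scaled to a common library size after TMM normalization. A floor of 3 counts lay between 0.113 and 0.162 CPM, which covers counting error only. The label was checked against marker genes, which bore it out only in part. Among fibroblast and mural cell markers, Dcn was at 312, Pdgfra at 160, Pdgfrb at 44.7, Cspg4 at 12.8 and Des at 1.69 CPM in untreated cells. Rgs5 was at 0 CPM in them. Pdpn at 342 CPM, Eng at 62.0 CPM, Flt4 at 21.6 CPM and Kdr at 11.6 CPM were present in untreated cells, while Pecam1, Cdh5, Emcn, Prox1, Lyve1 and Reln had at most 5 counts in any library, and Tie1, Erg and Ccl21a had 0 counts in all 8.

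The promoters of the kinesins were compared first, as a property that the symbol rule did not use. Many genes of the G2 and M phases carry a CHR element, of which TTTGAA is the common form, close to their transcription start, often with CCAAT boxes upstream. RefSeq promoters on GRCm38.p6 were used, from 250 bases before to 50 bases after the start annotated there. They were matched for 12 of the 13 mitotic, 10 of the 15 transport and 10 of the 13 other kinesins. The matched mitotic promoters include that of Kif2b, which had 0 counts in every library, and lack that of Kif20a. TTTGAA on either strand was present in 10 of the 12 mitotic promoters, in 1 of the 12 transport promoters, in 2 of the 12 promoters of other kinesins and in 17.9% of all promoters. In 8 of the 12 mitotic promoters the hexamer began within 25 bases of the annotated start, against 886 of all 32851 promoters, a window chosen after the positions were seen. None of the 12 promoters of the 10 transport kinesins had it there, and of the 12 promoters of the other kinesins only that of Kif26b did. The stretches of 30 bases around it are shown for the 8 mitotic genes, so that the hexamer can be compared between genes whose changes differ in size. They read 5′ to 3′ on the strand of the gene, with the hexamer in capitals, which is TTCAAA where TTTGAA lies on the other strand.
Kif11, chr19:37376350-37376379, plus strand: gtcgtctccatttTTCAAAattgaggcgcg
Kif22, chr7:127042421-127042450, minus strand: ggggccccggtaaTTCAAAagagagaagcg
Kif23, chr9:61946781-61946810, minus strand: gctgattggcctgTTTGAAatgcgccgggc
Kif15, chr9:122951049-122951078, plus strand: ttggggcgccaaaTTCAAAtctgcggccat
Kif20b, chr19:34922355-34922384, plus strand: gccgccattgTTTGAATTTGAAaaccggga
Kif4, chrX:100626071-100626100, plus strand: cctctgggatcaaTTTGAAacttggcggtt
Kifc1, chr17:33890616-33890645, minus strand: gcggaggttgaaaTTCAAAagtggcgggtg
Kif18b, chr11:102925105-102925134, minus strand: gcggaccggctagTTTGAAcgcgccgcgcc

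The 8 genes are listed from the largest to the smallest fall after TGFβ1, and the last 2, Kifc1 and Kif18b, carry the same hexamer as the others. The mitotic kinesins with the largest falls, Kif2c (log2 fold change -2.43) and Kif18a (-2.30), are not among the 8. The promoter of Kif18a held no TTTGAA, and those of Kif2c and Kif14 held it only at positions -103 and -228 from the RefSeq start. The promoters used for Kif2c and Kif14 both lie within the gene as GENCODE annotates it. For Kif2c, on the minus strand, the promoter reached to 117179022 and the GENCODE gene to 117182639. The stretches before the GENCODE starts of these genes were not searched. In Kif20b the hexamer occurs as 2 adjoining copies. The promoter of Kif11 shows the arrangement with a CCAAT box, read here on the other strand as ATTGG, and its 100 bases before the annotated start are given with both motifs in capitals.
Kif11, chr19:37376282-37376381, plus strand: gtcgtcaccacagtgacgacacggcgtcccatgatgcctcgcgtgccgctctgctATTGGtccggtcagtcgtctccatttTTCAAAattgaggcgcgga

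CCAAT on either strand was present in 8 of the 12 mitotic promoters, in 4 of the 12 transport promoters, in 4 of the 12 promoters of other kinesins and in 37.4% of all promoters. CCAAT together with any of the hexamers TTTGAA (the form above), TTCGAA (a variant form) or TTTAAA (another variant form) was present in 7 of the 12 mitotic promoters, in 0 of the 12 transport promoters, in 3 of the 12 promoters of other kinesins (Kif24, Kif26b and Kif27) and in 11.3% of all promoters. TTTAAA, which like TTCGAA reads the same on both strands, was in the promoters of Kif2c and Kif14 and in 13.2% of all promoters, and TTCGAA was in no mitotic promoter, in that of Kif24 and in 1.56% of all promoters. The E2F-type motif TTTGGCGC occurred in Kif15 and Kif18a and in 0.514% of all promoters, and TTTCGCGC in no kinesin promoter and in 0.323% of all. No hexamer overlapped a CCAAT box or an E2F-type motif in the stretches shown. These are matches of letters in a window around an annotated start and not sites shown to be bound.

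After genes with low counts were removed, 34 of the 41 kinesin genes were among the 13818 genes tested. Each gene was given a likelihood ratio test in edgeR, and the false discovery rate (FDR) was controlled by the Benjamini-Hochberg method across the 13818 genes. At an FDR under 0.05, 22 kinesins were lower after TGFβ1, where 38.0% of all genes tested were lower. A further 10 kinesins were higher, where 37.6% of all genes tested were higher, and the calls in either direction took in 75.6% of all genes tested. Kif1b and Kif6 did not pass. All 12 mitotic kinesins tested fell, and none rose. Of the 13 transport kinesins tested, 7 rose and 5 fell. Of the 9 other kinesins tested, 3 rose and 5 fell. The calls of the transport and the other kinesins went both ways, as those of all genes did, and the classes were not tested against each other. The median log2 fold change was -2.04 in mitotic, 0.17 in transport and -0.19 in other kinesins, beside -0.01 over all genes tested. A fall of more than 1 on the log2 scale was seen in 10 mitotic kinesins, 1 transport kinesin and 3 other kinesins, and in 6.56% of all genes tested. In RNA of whole cultures, fewer cells that express a gene and less of its RNA per cell cannot be told apart.

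**Figure D1:**
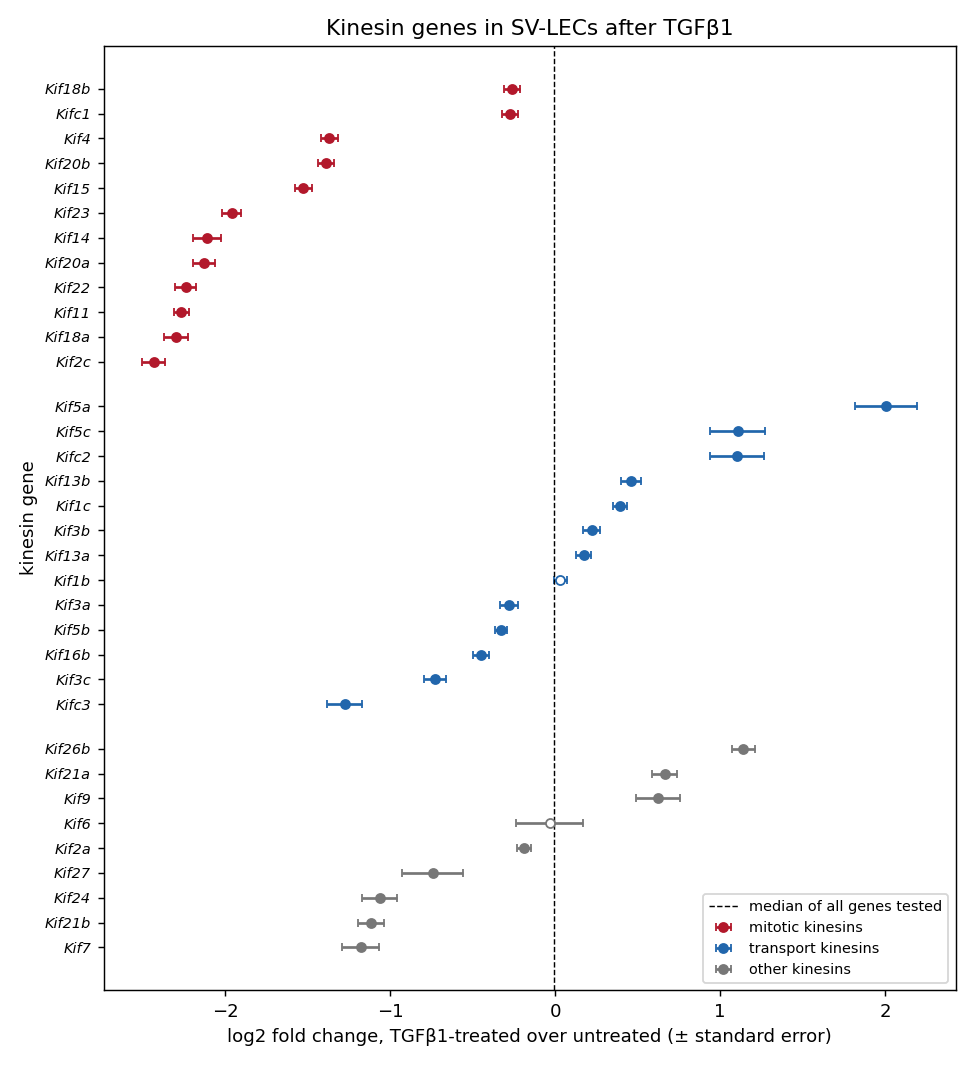
Log2 fold change of each tested kinesin gene, TGFβ1-treated over untreated SV-LECs, with its standard error from the fit as a bar. Filled points have an FDR under 0.05 and open points (Kif1b and Kif6) do not, and the dashed line is the median of all genes tested. All 12 mitotic kinesins lie left of the line, with Kif18b and Kifc1 nearest to it.

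Among the 34 kinesins tested, the 32 that passed were also the ones whose groups did not overlap, which was the case in 69.8% of all genes tested. The 22 lower ones stood beside 35.1% and the 10 higher ones beside 34.7% of all genes tested whose groups were separate in that direction. For each of them the exact two-sided permutation test of log2 CPM gave p = 0.0286, the smallest that 4 against 4 libraries allow. The filter left out 7 kinesins. Kif2b, a spindle kinesin, had 0 counts in every library, which allows up to 3 counts in each. Kif12, Kif26a and Kif28 had at most 3 counts in any library. Kif19a was without a count in untreated cells and had 1 to 3 in each treated library. Kif1a, a carrier of synaptic vesicle precursors, had 0 to 1 counts in untreated and 5 to 9 in TGFβ1-treated libraries, and Kif17 had 3 to 12 and 10 to 16 counts. No fold is given for these genes.

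Among mitotic kinesins the largest fall was that of Kif2c (ENSMUSG00000028678, chromosome 4, 117159639 to 117182639), a depolymerase at centromeres that corrects faulty attachments of chromosomes. Kif2c was at 75.5, 74.7, 78.0 and 68.8 CPM in the untreated libraries and at 15.3, 12.7, 14.1 and 13.1 CPM in the treated libraries. The lowest untreated library was thus far above the highest treated library. The level was 5.40-fold lower after TGFβ1 (log2 fold change -2.43, standard error 0.0688, FDR = 2.30e-282 from edgeR). Kif18a (chromosome 2, 109280738 to 109341747), which shortens microtubules at their plus ends and dampens chromosome movements, was at 39.0, 40.4, 41.6 and 38.0 CPM without and at 8.71, 7.89, 8.02 and 7.84 CPM with TGFβ1. Its log2 fold change was -2.30 (standard error 0.0735, FDR = 1.41e-240 from edgeR). Kif11 (chromosome 19, 37376403 to 37421859), the tetrameric motor that slides spindle microtubules apart and sets up the bipolar spindle, was at 244, 244, 252 and 242 CPM in untreated and at 54.3, 51.0, 50.4 and 48.4 CPM in treated libraries. Its log2 fold change was -2.27 (standard error 0.0455), and its FDR was smaller than the computer can represent, with a likelihood ratio statistic of 2442. In both genes every treated library was far below every untreated library.

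Kif22 (chromosome 7, 127027729 to 127042471), a chromokinesin that binds DNA and pushes chromosome arms to the spindle equator, was at 87.2, 83.6, 83.9 and 78.1 CPM in untreated and at 17.9, 16.5, 16.9 and 19.0 CPM in treated libraries, a log2 fold change of -2.24 (standard error 0.0627). Kif4 (chromosome X, 100625737 to 100727214), the other chromokinesin, which also shapes the central spindle together with Prc1, was at 93.2, 97.6, 100.4 and 93.2 CPM in untreated and at 38.0, 35.5, 36.9 and 38.5 CPM in treated libraries, a log2 fold change of -1.37 (standard error 0.0512). Both fell, and the libraries of the groups were well apart in each. Pdzd11, on the opposite strand, overlaps 13.8% of the 75-base stretches of Kif4, 75 bases being the read length, and the strand setting of the counting is not given in the sources used here. Kif15 (chromosome 9, 122951046 to 123018733), which helps Kif11 to hold the spindle poles apart, was at 97.2, 94.9, 93.7 and 90.7 CPM in untreated and at 33.1, 33.3, 33.4 and 31.1 CPM in treated libraries, a log2 fold change of -1.53 (standard error 0.0505).

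The kinesins of cytokinesis also fell. Kif20a (chromosome 18, 34624613 to 34633277), which brings Aurora B to the central spindle, was at 209, 221, 223 and 186 CPM in untreated and at 51.8, 43.7, 46.5 and 50.1 CPM in treated libraries, a log2 fold change of -2.13 (standard error 0.0666). Cdc23 overlaps 23.3% of its stretches from the opposite strand. Kif14 (chromosome 1, 136466343 to 136531511), which acts with citron kinase at the midbody, was at 46.1, 44.9, 48.4 and 43.5 CPM in untreated and at 11.4, 8.13, 11.02 and 11.7 CPM in treated libraries, a log2 fold change of -2.11 (standard error 0.0856). Kif23 (chromosome 9, 61915905 to 61946774), the motor subunit of centralspindlin, was at 127, 133, 127 and 114 CPM in untreated and at 33.1, 31.4, 30.9 and 33.1 CPM in treated libraries, a log2 fold change of -1.96 (standard error 0.0588). In CPM the spread was wider in untreated libraries, where the levels were higher, than in treated libraries for Kif20a and Kif23. The groups stayed apart. Racgap1, the other subunit of centralspindlin, was chosen after its values were seen and fell by 1.83 on the log2 scale. Kif20b (chromosome 19, 34922361 to 34975745), a further cytokinesis motor, was at 133, 139, 141 and 143 CPM in untreated and at 56.2, 51.8, 53.4 and 51.1 CPM in treated libraries, a log2 fold change of -1.39 (standard error 0.0478).

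**Figure D2:**
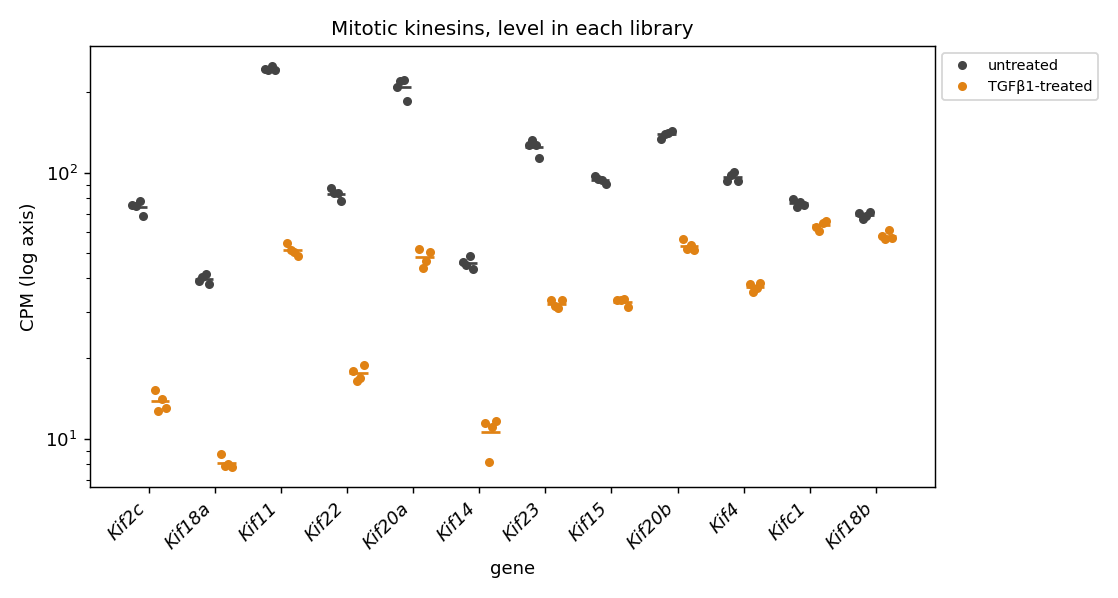
CPM on a log axis of the 12 tested mitotic kinesins in each library, with points for the 4 untreated and the 4 TGFβ1-treated libraries and a line at each group's mean. The genes run from the largest fall, Kif2c, to the smallest, Kif18b, and in each gene every treated point lies below every untreated point.

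Kifc1 and Kif18b showed smaller falls than the other 10 mitotic kinesins. Kifc1 (chromosome 17, 33875659 to 33890661), a minus-end motor that focuses spindle poles and clusters centrosomes, was at 79.5, 74.3, 77.7 and 75.6 CPM in untreated and at 62.4, 60.5, 64.8 and 65.9 CPM in treated libraries. Its log2 fold change was -0.27 (standard error 0.0482, FDR = 2.82e-08 from edgeR). Kif18b (chromosome 11, 102905529 to 102925124), which works with Kif2c on astral microtubules, was at 70.7, 67.0, 68.6 and 71.2 CPM in untreated and at 57.6, 56.4, 60.8 and 56.5 CPM in treated libraries. Its log2 fold change was -0.26 (standard error 0.0483, FDR = 1.32e-07 from edgeR). Each group of 4 libraries was still separate from the other in both genes.

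Kifc1 shares 25.4% of its 75-base stretches with Kifc5b on the same strand, so its counts are uncertain where the counting divided or dropped such reads. Kifc5b had 25.7 ± 1.49 CPM in untreated and 27.0 ± 1.98 CPM in treated libraries (SD, n = 4 per group). Its groups overlapped and it did not pass (log2 fold change 0.075, FDR = 0.320 from edgeR). With the counts of both genes summed, an alternative chosen after the data were seen, the log2 fold change was -0.18 (FDR = 0.000361 from edgeR). Kif18b shares none of its stretches with another gene.

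The difference between close relatives was tested by the log2 ratio of the 2 tested members with the highest untreated level per kilobase in each of 8 kinesin families, with an exact two-sided permutation test and adjustment over the 8 pairs. The pairs were chosen after the values were known. In 2 families, the chosen members had already separated in opposite directions, Kif3b from Kif3a and Kif5c from Kif5b. Their ratios then had to separate and give the smallest exact p, which adds nothing to the single genes. Both were kept among the 8 pairs of the adjustment, and their p-values are not given. In the kinesin-8 family, the log2 ratio of Kif18b to Kif18a went from 0.80 ± 0.092 to 2.82 ± 0.081 (SD, n = 4 per group), a difference of 2.02 (exact p = 0.0286, adjusted p = 0.0327). In the kinesin-13 family, the ratio of Kif2a, a depolymerase active outside mitosis as well, to Kif2c went from 0.56 ± 0.099 to 2.80 ± 0.088, a difference of 2.23 (exact p = 0.0286, adjusted p = 0.0327). Within each of these families TGFβ1 thus shifted the RNA towards 1 member. In kinesin-6, the ratio of Kif20a to Kif20b went from 0.59 ± 0.14 to -0.15 ± 0.095, so that Kif20a fell by more (exact p = 0.0286, adjusted p = 0.0327). In kinesin-14, the ratio of Kifc1 to Kifc3 rose by 1.00, and in kinesin-4 the ratio of Kif4 to Kif21b moved by -0.26 with groups that overlapped (exact p = 0.0571 for kinesin-4 and 0.0286 for kinesin-14, adjusted p = 0.0571 and 0.0327).

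Transport kinesins showed changes in both directions, and most were small. Kif5b (chromosome 18, 6201002 to 6242174), the ubiquitous heavy chain of conventional kinesin, was at 479, 497, 492 and 484 CPM in untreated and at 388, 390.1, 382 and 394 CPM in treated libraries, a log2 fold change of -0.33 (standard error 0.0359). Its neuronal relatives were low and rose. Kif5a (chromosome 10, 127225696 to 127263348) was at 1.35, 1.05, 0.786 and 0.811 CPM in untreated and at 4.44, 4.38, 3.84 and 3.57 CPM in treated libraries, with 16 to 28 and 78 to 92 counts. The rise was 4.01-fold (2.01 on the log2 scale, standard error 0.188, FDR = 5.00e-30 from edgeR) and was the highest of the tested kinesins. Kif5c (chromosome 2, 49619298 to 49774778) was at 2.07, 1.58, 1.48 and 1.42 CPM in untreated and at 3.57, 4.19, 3.00 and 3.38 CPM in treated libraries, a log2 fold change of 1.11 (standard error 0.168). The log2 ratio of Kif5b to Kif5c fell by 1.40, which follows from their opposite changes. Per kilobase Kif5b was still at 48.6 ± 0.628 CPM and Kif5c at 0.495 ± 0.0693 CPM after TGFβ1 (SD, n = 4).

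Kif1c (chromosome 11, 70700548 to 70731964), a vesicle and Golgi motor of many cell types, was at 397, 382, 385 and 379 CPM in untreated and at 498, 483, 534 and 513 CPM in treated libraries, a log2 fold change of 0.39 (standard error 0.0420). Kif1b, a carrier of mitochondria and vesicles in the same family, had 223 ± 5.98 and 228 ± 6.55 CPM (SD, n = 4) and did not pass (log2 fold change 0.031, FDR = 0.484 from edgeR). The log2 ratio of Kif1c to Kif1b rose by 0.36 (exact p = 0.0286, adjusted p = 0.0327). Kif13b and Kif13a, which carry membrane proteins, rose by log2 fold changes of 0.46 and 0.17, and Kif16b, a motor of early endosomes, fell by 0.45 on the log2 scale. The libraries of the groups were separate in all 3 genes, with Kif16b between 45.8 and 46.6 CPM in untreated and between 32.9 and 34.2 CPM in treated libraries.

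The kinesin-2 genes encode the motor of intraflagellar transport, in which Kif3a pairs with Kif3b or Kif3c and the pair binds the adaptor Kifap3. Kif3b rose (log2 fold change 0.22, standard error 0.0511), and Kif3a fell (log2 fold change -0.28, standard error 0.0541). Their log2 ratio went from 0.78 ± 0.074 to 1.28 ± 0.083, a difference of 0.50 that follows from these opposite changes. Kif3c (chromosome 12, 3365132 to 3406494) was at 36.8, 38.9, 33.8 and 38.0 CPM in untreated and at 23.5, 20.8, 23.3 and 21.5 CPM in treated libraries, a log2 fold change of -0.73 (standard error 0.0663). The gene 1110002L01Rik overlaps 34.4% of its stretches from the opposite strand. Kifap3 fell by 0.21 on the log2 scale and was chosen after its values were seen.

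Kifc3 and Kifc2, the transport kinesins among the minus-end motors of the C-terminal family, moved in opposite directions. Kifc1, the mitotic kinesin of this family, fell (log2 fold change -0.27). Kifc3 (chromosome 8, 95099828 to 95202812), known for transport towards the apical surface and for a role at adherens junctions, was at 120.0, 112, 103 and 88.6 CPM in untreated and at 41.8, 35.2, 50.8 and 47.4 CPM in treated libraries. It was 2.42-fold lower after TGFβ1 (log2 fold change -1.28, standard error 0.106, FDR = 7.67e-32 from edgeR), and it was the transport kinesin with the largest fall. Relative to its mean level, Kifc3 varied more between libraries than Kif5b and Kif1c did. Kifc2 (chromosome 15, 76659858 to 76668196), mainly known from neurons, was at 1.49, 2.14, 1.48 and 2.59 CPM in untreated and at 4.17, 3.75, 4.28 and 4.31 CPM in treated libraries, a log2 fold change of 1.10 (standard error 0.163). A rise of more than 1 on the log2 scale was reached by Kif5a, Kif5c and Kifc2 among transport kinesins, all under 5 CPM, and by 10.9% of all genes tested.

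**Figure D3:**
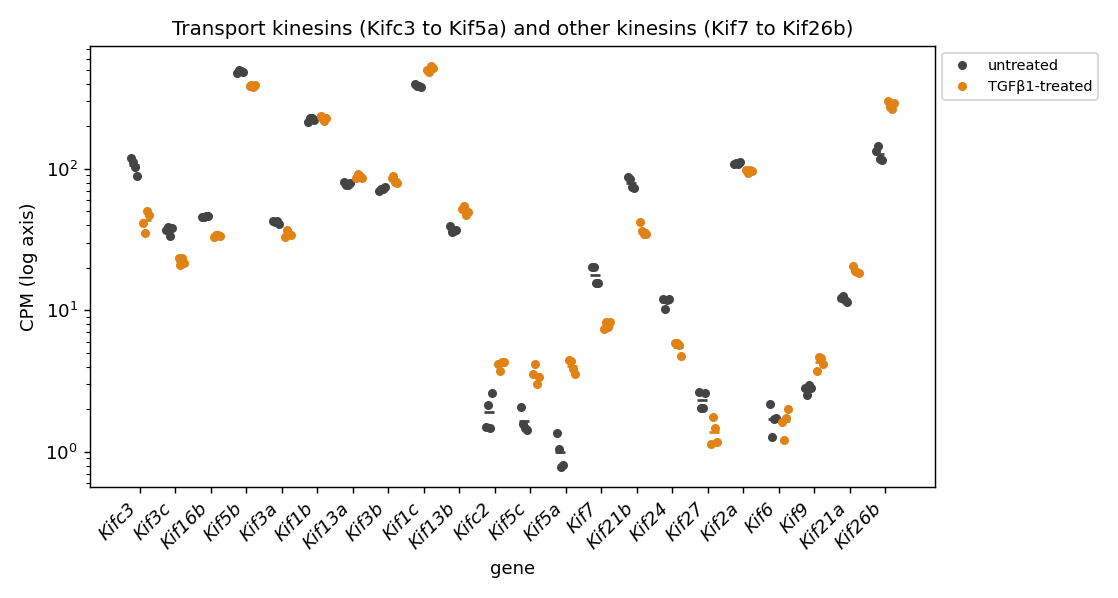
CPM on a log axis of the 13 tested transport kinesins (Kifc3 to Kif5a) and the 9 tested other kinesins (Kif7 to Kif26b) in each library, with a line at each group's mean. Kif5b and Kif1c have the highest CPM in both groups, followed by Kif1b in untreated and Kif26b in treated libraries, the groups overlap in Kif1b and Kif6, and Kifc2, Kif5c and Kif5a rise from low levels.

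Among the other kinesins, Kif26b (chromosome 1, 178529125 to 178939200), an unconventional kinesin linked to Wnt5a and Ror signalling, rose most. It was at 133, 146, 117 and 116 CPM in untreated and at 302, 274, 266 and 291 CPM in treated libraries, a 2.21-fold rise (log2 fold change 1.14, standard error 0.0701, FDR = 2.20e-57 from edgeR). Kif7 (chromosome 7, 79698098 to 79715720), a regulator of Hedgehog signalling at the tip of the cilium, was at 20.1, 20.2, 15.7 and 15.6 CPM in untreated and at 7.41, 8.28, 7.68 and 8.27 CPM in treated libraries, a log2 fold change of -1.18 (standard error 0.112). The gene 9330171B17Rik overlaps 14.4% of its stretches from the opposite strand. Kif21b (chromosome 1, 136131389 to 136177998), which slows microtubule growth, was at 87.4, 85.3, 74.3 and 73.3 CPM in untreated and at 42.4, 36.5, 34.8 and 34.5 CPM in treated libraries, a log2 fold change of -1.12 (standard error 0.0776). Its relative Kif21a rose by 0.66 on the log2 scale, so the members of this pair passed in opposite directions.

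Kif24 (chromosome 4, 41390745 to 41464887), a centriolar depolymerase that restrains cilium formation, was at 11.9, 10.3, 11.9 and 12.1 CPM in untreated and at 5.84, 5.84, 5.66 and 4.77 CPM in treated libraries, a log2 fold change of -1.06 (standard error 0.108). Kif9, of motile cilia, rose by 0.62 on the log2 scale, and Kif27, a relative of Kif7, fell by 0.74, both at under 5 CPM. Kif2a had the smallest change among the other kinesins that passed, with 109.6 ± 1.89 and 96.2 ± 2.35 CPM (SD, n = 4; log2 fold change -0.19). Dimt1 overlaps 17.4% of its stretches from the opposite strand. Kif6 had 1.72 ± 0.364 and 1.65 ± 0.331 CPM (SD, n = 4) and did not pass (log2 fold change -0.033, FDR = 0.889 from edgeR).

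Levels of different genes were compared per kilobase of annotated exon. In untreated cells the highest levels per kilobase were those of Kif5b (61.2 ± 1.02 CPM), Kif1c (53.0 ± 1.10), Kif20a (48.3 ± 3.86) and Kif11 (32.9 ± 0.574; SD, n = 4 each). Kifc1, Kifc3, Kif20b and Kif18b followed at 22.5 ± 0.662, 20.0 ± 2.53, 20.0 ± 0.601 and 19.4 ± 0.552 CPM, and the last 3 of these lay within their spread of one another. After TGFβ1, Kif1c was first at 69.7 ± 2.99 CPM per kilobase and Kif5b second at 48.6 ± 0.628. Kif26b came next at 19.3 ± 1.12, and Kifc1 at 18.6 ± 0.711 lay within the spread of it. Kif18b at 16.2 ± 0.579 CPM was the mitotic kinesin with the next highest level, while Kif20a had gone to 11.1 ± 0.832 and Kif11 to 6.84 ± 0.327.

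The summed CPM of the 41 kinesin genes went from 3186 ± 68.2 to 2376 ± 33.3 (SD, n = 4 per group). Mitotic kinesins held 1299 ± 38.4 CPM in untreated and 425 ± 12.7 CPM in treated libraries, and the transport kinesins 1521 ± 19.0 and 1494 ± 11.6 CPM. Other kinesins went from 366 ± 23.2 to 456 ± 20.1 CPM, of which Kif26b alone went from 128 to 283 mean CPM. The median log2 fold change of this class was -0.19, opposite in direction to its sum. The mitotic share of kinesin reads lay between 40.3% and 41.7% in untreated libraries and between 17.5% and 18.2% in treated libraries, and the transport share between 47.4% and 48.4% and between 61.7% and 63.5%. The sums of the transport kinesins overlapped between the groups, with the fall of Kif5b and Kifc3 beside the rise of Kif1c. These sums are dominated by abundant and long genes and were not tested.

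**Figure D4:**
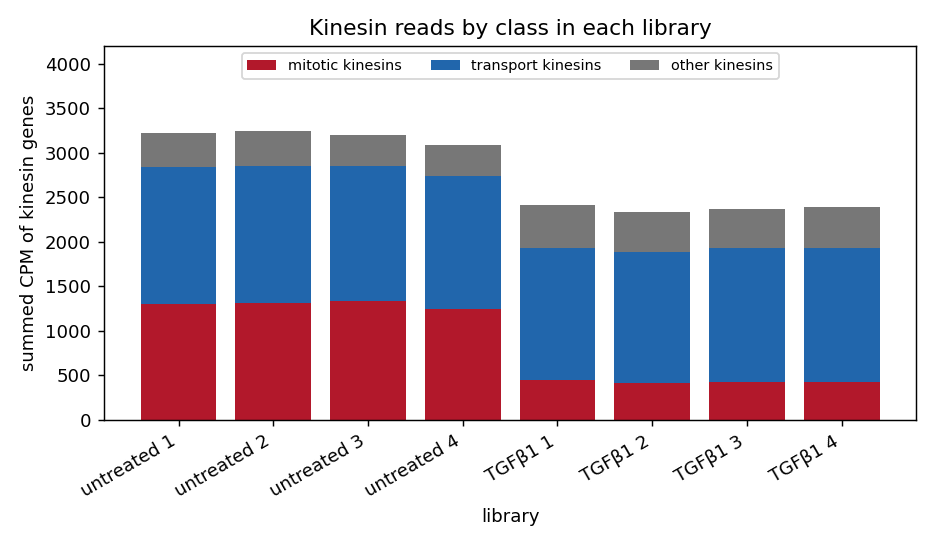
Summed CPM of the kinesin genes of each class in each of the 8 libraries, stacked from 0. The mitotic part is between 1245 and 1334 CPM in untreated and between 409 and 440 CPM in treated libraries, while the transport part stays between 1480 and 1538 CPM in all 8.

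Genes that work with the mitotic kinesins were lower as well. Of a list of 19 mitotic partners, all 19 were tested and lower, with a median log2 fold change of -1.76, where 38.0% of all genes tested were lower and their median was -0.01. The list includes Cenpe (-1.01), which is itself a mitotic kinesin with a symbol outside the rule. The range ran from Aurkb (-2.18), the kinase of the chromosomal passenger complex, and Nusap1 (-2.15), a spindle-bundling protein, to Ckap5 (-0.63), a microtubule polymerase, and Numa1 (-0.24), which anchors spindle poles. Of 8 proliferation markers, all 8 were lower, against the same 38.0%, from Ccna2 (-2.18) and Mki67 (-1.84) to Pcna (-0.66) and Mcm2 (-0.38), and the summed level of the list lay between 2587 and 2706 CPM in untreated and between 1058 and 1117 CPM in treated libraries. Their part in the fall of the mitotic kinesins was not tested.

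Of 22 kinesin light chains and cargo adaptors, 19 were tested, 10 were higher and 6 lower, with a median log2 fold change of 0.12. Over all genes tested 37.6% were higher and 38.0% lower, so the calls of this list in both directions are no result about the list. The highest values were those of Mapk8ip3, an adaptor between kinesin-1 and JNK (0.96), and of Arl8a, a GTPase of lysosomes that recruits kinesins (0.91). The lowest were those of Klc2, a light chain of conventional kinesin (-1.21), and of Kifbp, which binds kinesin motor domains (-0.38, listed under its older symbol Kif1bp).

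Markers of other cell types were listed with the endothelial ones. Few genes of each list were tested, and of all genes tested 37.6% were higher and 38.0% lower. The counts of calls below are thus no result about the lists. Of 6 leukocyte markers only Cd14 was tested and it was higher, Ptprc had at most 1 count in any library, and the summed level was between 9.68 and 11.004 CPM in untreated and between 13.8 and 16.2 in treated libraries. Of 6 epithelial markers 3 were tested and 2 were higher, and the sum was between 34.2 and 40.7 CPM and between 38.2 and 45.2 CPM. Most of it came from Krt14, at 37.1 and 38.8 mean CPM, which did not pass (log2 fold change 0.067), while Krt18 (2.47) and Krt8 (1.99) rose from under 1 CPM, and Epcam had at most 7 counts. Of 6 fibroblast and mural cell markers 5 were tested, 3 were higher and 2 lower, and the sum was between 511 and 554 CPM and between 228 and 258 CPM. The abundant Dcn (log2 fold change -1.91) and Pdgfra (-1.47) fell, Des (2.09) and Cspg4 (0.85) rose, and the median of the 5 was 0.63, opposite in direction to the sum. Of 8 endothelial markers 3 were tested and 2 were higher, Eng (log2 fold change 1.21) and Kdr (0.93), and the sum was between 70.2 and 78.2 CPM and between 162 and 170.3 CPM. Of 6 lymphatic markers 2 were tested, Flt4 was higher (0.44) and Pdpn lower (-0.13), and the sum was between 344 and 381 CPM and between 337 and 348 CPM. Their part in the kinesin changes was not tested.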

How the data were processed

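Stranded mRNA libraries were made from 4 untreated and 4 TGFβ1-treated SV-LEC samples and read from 1 end for 75 bases. The authors deposited raw counts of reads per gene, and the submitters' processing notes name bcl2fastq 2.20.0.422, STAR 2.7.3a, featureCounts 1.5.1 and GRCm38. The annotation release and the strand setting are not given in the sources used here. Groups came from the sample titles.

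Counts were analysed with edgeR 4.0.16 in R 4.3.3 over all genes, with filterByExpr, TMM, glmFit and glmLRT, the test of the study. Calls used an FDR under 0.05. Standard errors came from fitted means and dispersions. The pipeline was tested on simulated data, in which the likelihood ratio test made more false calls than its FDR threshold allows and than the quasi-likelihood test or DESeq2 did. Far fewer genes were changed in the simulation than were called in these data, so its share of false calls need not carry over. Exon lengths, positions and shared stretches of 75 bases came from GENCODE M21, which matched all 41 kinesins. Promoters came from RefSeq (GRCm38.p6). Protein sequences were not used here. Alternatives tried were edgeR's quasi-likelihood test, DESeq2 1.42.0, other scalings, filters, prior count and class limits, a replicate block and each library left out.

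The kinesins, classes and lists were chosen with earlier results of these data known. Each kinesin under the symbol rule was accounted for, and Cenpe was named as a kinesin outside it. Values per library were given for mitotic and transport kinesins that passed with an absolute log2 fold change above 0.5, for the 3 transport kinesins with the highest level per kilobase and for other kinesins above 1. Values per library of Kifc1 and Kif18b were added after they were seen. From other lists the 2 highest and 2 lowest tested genes were named. Further markers, among them those with few or no counts, were added as a check of the cell type. Promoter stretches were to be shown for the 3 mitotic kinesins with the largest falls that hold CCAAT and a hexamer, which are Kif11, Kif22 and Kif14. Since those of Kif22 and Kif14 lie partly or wholly within the gene as GENCODE annotates it, only that of Kif11 is shown. In addition, 30 bases are shown around each hexamer near a RefSeq start, which Kif14 lacks. These shorter stretches were shown without that limit. Those of Kif22, Kif15, Kif4 and Kifc1 lie within the GENCODE gene, and those of Kif20b and Kif18b lie partly within it.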

Additional observations from a re-analysis of the deposited data

Results flagged for a closer look

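In 2 of 68 sets of 4 libraries (34 kinesins in 2 groups), 1 library stood far from the other 3 by Dixon's test, which chance alone does in about 1 of 20 sets. Kif15 was at 31.1 CPM in TGFβ1-treated replicate 4 and between 33.1 and 33.4 CPM in the other treated libraries. Kif24 was at 10.3 CPM in untreated replicate 2 and between 11.9 and 12.1 CPM in the other untreated libraries. Both values remained on their group's side of the gap to the other group.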

How the results depend on the processing

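The 32 kinesins called were called in the same direction under each alternative that used all genes, the quasi-likelihood test and DESeq2 among them, and with each library left out. The counts ranged, with each library left out, from 10 to 11 higher and stayed at 22 lower, and the mitotic median from -2.07 to -1.98. The transport median ranged from 0.16 to 0.22 and was 0.11 with total counts, a scaling that moved the median of all genes from -0.01 to -0.074. The mitotic median was -1.74 with Kif2a and Kif24 counted as mitotic. Members that share over 10% of their stretches were also left out of the counts, a choice made after the data were seen. Nothing was fitted again, so no call changed. This left 15 of the 22 lower kinesins, among them 9 of the 12 mitotic and 3 of the 5 transport kinesins, and all 10 higher ones. Of the genes that did not pass, Kif1b changed sign with total counts (-0.036), and Kif6 did so without untreated replicate 1 (0.094) or TGFβ1-treated replicate 2 (0.090), its range with each library left out being -0.17 to 0.094. Without the filter, 34 kinesins were called, the added ones being Kif1a and Kif19a. With a replicate block the counts were 10 higher and 22 lower. The numbers do not pair the samples, since same-numbered libraries had correlations of their deviations between -0.19 and -0.03.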

Other observations

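The other microtubule motor and its track were examined with lists of their own. Of 24 genes of cytoplasmic dynein, dynactin and their regulators, all tested, 11 were higher and 7 lower after TGFβ1 at an FDR under 0.05 from edgeR, with a median log2 fold change of 0.025. Over all genes tested 37.6% were higher and 38.0% lower, so these counts are no result about the list. The heavy chain Dync1h1, which holds the motor, went from 260.1 to 429 mean CPM, a rise of 0.72 on the log2 scale. The intermediate chain Dync1i1 went from 0.298 to 0.696 mean CPM, a rise of 1.21, with at most 20 counts in a library and groups that overlapped. Bicd1, a cargo adaptor, and Nde1, a dynein regulator also known from mitosis, fell by 0.54 and 0.37 on the log2 scale.

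Of 16 tubulin genes, all tested, 3 were higher and 10 lower, with a median log2 fold change of -0.30, against 37.6% higher and 38.0% lower among all genes tested. Tubb5, the most abundant β-tubulin of the list, went from 2073 to 1114 mean CPM (log2 fold change -0.90, standard error 0.0414), and Tube1, the centriolar ε-tubulin, fell by 1.17 on the log2 scale. Tuba8 and Tubb3 rose by log2 fold changes of 2.47 and 0.67 from 0.442 and 8.24 mean CPM. Tubulin genes are close copies of one another, so counts of single members are uncertain.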
